A study of Rattus norvegicus with 12 samples.

Results

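The genes described here were 60 genes that assemble, sulfate, trim and degrade glycosaminoglycans, bind hyaluronan, or encode the core proteins of proteoglycans. They were picked by symbol from the 25620 genes of the deposited count table, by a rule that uses no measured value, although earlier results of these data were known when the list was drawn up, and all 60 passed the filter on low counts that left 16110 genes for testing. They were sorted into 15 roles, from the enzymes of the linkage region to the small leucine-rich proteoglycans. The question was how a wound's own glycosaminoglycan genes were expressed under dressings that themselves contain, or are alternatives to, a glycosaminoglycan.

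The libraries came from wound tissue, labelled as skin, of male Sprague-Dawley (SD) rats, 8 to 12 weeks old, made diabetic with streptozotocin (STZ), a toxin of insulin-producing cells, and given 1 circular full-thickness punch wound on the back. The wounds received saline (control), *A. fulica* d-SMG (dried snail-mucus glue, which holds protein and a heparin-like sulfated glycosaminoglycan), s-GAG (the glycosaminoglycan purified from d-SMG, labelled GAG), or Alg (a commercial alginate dressing, made of a polysaccharide of algae). Tissue was taken on day 3, 7 and 14, with 1 library for each of the 4 treatments on each of the 3 days, 12 in all. All groups carried the diabetes and the wound, an unwounded or non-diabetic group was not analysed here, and the STZ rat may lack some features of the human diabetic ulcer, such as its neuropathy. Whether tissue of several rats was pooled is not given in the sources used here.

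Glycosaminoglycans are long, negatively charged sugar chains. Heparan, chondroitin and dermatan sulfate are built in the Golgi on a short linkage sugar attached to a core protein, and the finished proteoglycan stays at the cell surface or enters the matrix. Hyaluronan carries no sulfate and no core protein, and is spun out at the plasma membrane. In a healing wound, hyaluronan and versican fill the early loose matrix, decorin and lumican shape collagen fibrils, and the syndecans hold growth factors at the surface of keratinocytes and other cells.

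The 12 libraries held 13748887 to 38302461 reads on genes, and the 60 genes took 0.149% to 0.452% of them. Levels of 1 gene are given below as CPM, read counts divided by the size of the library after scaling by the trimmed mean of M values (TMM), and only FPKM, which also divides by length, is used between genes. Libraries stood apart. The d-SMG day 3 library was nearly free of keratinocyte markers, whose 10 measured genes summed to 53.7 CPM against a median of 13821 over the 12 libraries, so that for this library the label skin was not borne out by epidermal genes. Its 12 skeletal muscle markers summed to 246137 CPM, against a median of 53935. The s-GAG day 14 library had 38.03% of its protein-coding reads on genes with an implied length under 1.5 kb, against a median of 18.7%. In bulk tissue, fewer cells of a type and less RNA per cell cannot be told apart.

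By FPKM, core proteins were the highest of the 60 genes. Decorin (*Dcn*), a small leucine-rich proteoglycan that binds collagen, had a median of 344 FPKM over the 12 libraries. Syndecan-1 (*Sdc1*), a heparan sulfate proteoglycan of epithelial surfaces, had a median of 93.8, and lumican (*Lum*), which spaces collagen fibrils, 93.3. Next came *Sdc2* at 39.4, the hyaluronan receptor *Cd44* at 27.5 and biglycan (*Bgn*) at 20.8. The enzymes lay lower, with *Csgalnact2*, an initiator of chondroitin chains, at 13.1 and the extracellular 6-O-endosulfatase *Sulf1* at 12.5. The lowest medians were those of *Extl2* (0.22 FPKM), the hyaluronan synthase *Has3* (0.26) and the hyaluronan depolymerase *Cemip* (0.36).

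Within a gene, the spread over the 12 libraries differed widely. Leaving out *Acan*, which had a library at 0 reads, the CPM of *Cemip* varied by 55.9 times between the lowest and the highest library, that of *Has1* by 22.6 times, *Has3* by 19.7 times and *Sulf1* by 19.5 times. The steadiest genes were *Ndst2*, which starts the sulfation of heparan sulfate, at 1.76 times, *Sdc2* at 1.87 times and *Chpf*, a subunit of the chondroitin polymerase, at 1.88 times. Has1 and Has3 rested on few reads, with 4 to 124 and 4 to 160 per library, respectively.

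**Figure D1:**
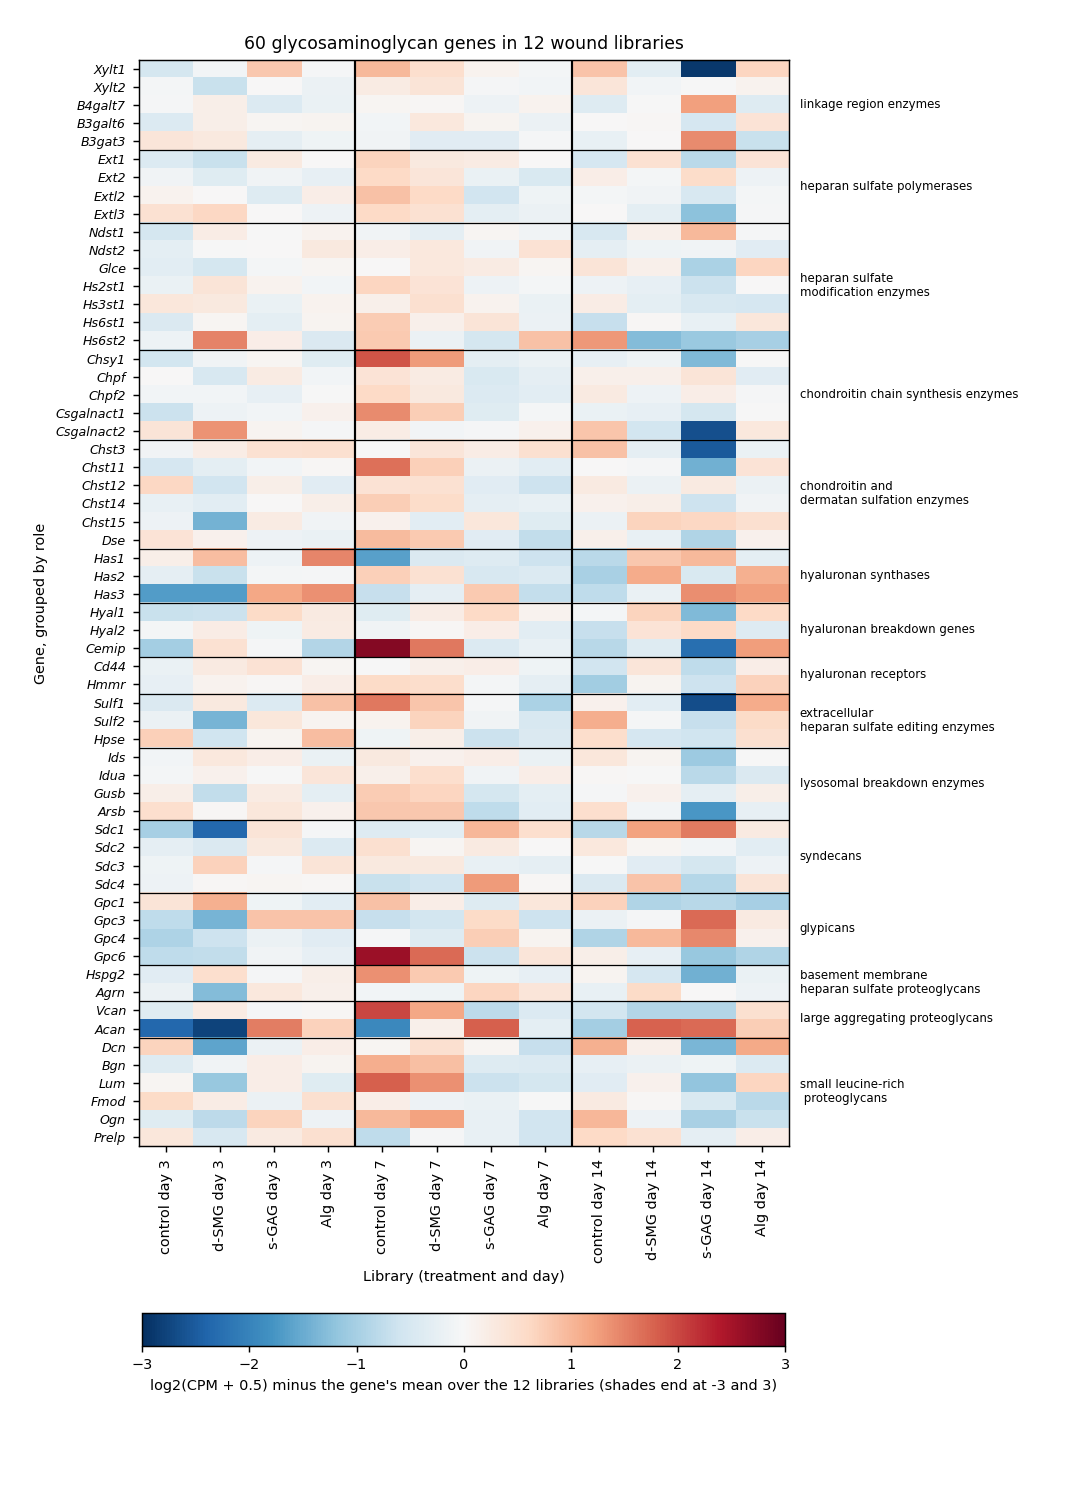
Each row is 1 of the 60 genes, grouped by role, and each column 1 of the 12 libraries, ordered by day and then by treatment. The color gives log2(CPM + 0.5) minus the mean of that gene over the 12 libraries, and the darkest red cells lie in the control day 7 column, while the darkest blue cells lie in d-SMG day 3 and s-GAG day 14.

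The first pattern was a group of genes of several roles that were high on day 7 in the control wound and, less so, in the d-SMG wound. Of the 60 genes, 23 had their highest level in the control day 7 library, against 10.9% of all genes tested. For 16 of the 60, control day 7 and d-SMG day 7 were the 2 highest libraries, against 7.58% of all genes tested. These 16 were *Arsb*, *Bgn*, *Cemip*, *Chpf2*, *Chst11*, *Chst14*, *Chsy1*, *Csgalnact1*, *Dse*, *Extl2*, *Gpc6*, *Gusb*, *Hs2st1*, *Hspg2*, *Lum* and *Vcan*, a group noticed after the values were seen. It holds versican, perlecan, biglycan and lumican with some enzymes that make chondroitin and dermatan sulfate. It also holds the heparan sulfate genes *Hs2st1*, *Extl2* and *Gpc6*, the lysosomal enzymes *Arsb* and *Gusb*, and *Cemip*. The chondroitin genes *Csgalnact2*, *Chpf*, *Chst3*, *Chst12* and *Chst15* were not among the 16. In the same libraries the 10 fibroblast markers summed to 43109 CPM (control day 7) and 26314 CPM (d-SMG day 7). The sums were 7514 CPM in s-GAG day 7 and 10907 CPM in Alg day 7. Most of the control day 7 sum was collagen, with *Col3a1* at 18247 CPM, *Col1a1* at 15048 CPM and *Col1a2* at 8596 CPM. Of the other markers, *Pdgfra*, *Pdgfrb*, *Thy1*, *Fap* and *Fbn1* were also highest in control day 7. *Dpt* was lowest there (61.6 CPM), and *Pi16* was 11.6 CPM there against 28.9 CPM in Alg day 3. In control day 14 the fibroblast marker sum was 30196 CPM and the versican level 53.6 CPM. There *Thy1* was 62.3 CPM and *Dpt* 182 CPM, against 330 and 61.6 CPM in control day 7. The part of fibroblast content in the group was not tested.

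Versican (*Vcan*), the large hyaluronan-binding chondroitin sulfate proteoglycan of provisional matrix, stood at 61.5, 315 and 53.6 CPM in the control on day 3, 7 and 14, and at 92.9, 177 and 42.5 CPM under d-SMG. It stood at 76.6, 45.6 and 42.4 CPM under s-GAG and at 81.1, 59.5 and 110 CPM under Alg. The control and d-SMG wounds thus peaked on day 7, whereas s-GAG had its highest value on day 3 and Alg on day 14. *Lum* had the same shape, at 197, 647 and 147 CPM in the control and 84.4, 487 and 206 CPM under d-SMG. In the s-GAG wounds it was 215, 119 and 81.7 CPM, and in the Alg wounds 146, 131 and 293 CPM. Neither s-GAG nor Alg showed a day 7 maximum for these genes.

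Some chain-building enzymes had the same shape. Chondroitin synthase 1 (*Chsy1*), which extends the chain, was 14.7, 81.7 and 18.0 CPM in the control and 19.98, 52.8 and 19.7 CPM under d-SMG, while all 6 s-GAG and Alg libraries lay between 8.31 and 22.4 CPM. *Csgalnact1*, which adds the first chondroitin sugar, reached 48.9 CPM in control day 7 and 30.3 CPM in d-SMG day 7, and no other library exceeded 19.7 CPM. The chondroitin 4-sulfotransferase *Chst11* reached 35.8 and 18.5 CPM in these libraries and at most 14.9 CPM elsewhere. *Csgalnact2*, the other initiator, did not share this shape and was highest in d-SMG day 3 (161 CPM) and control day 14 (113 CPM).

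*Cemip*, a secreted protein needed to depolymerize hyaluronan, had the widest spread of the 59 genes with reads in every library. It was 2.21, 36.3 and 2.57 CPM in the control and 6.99, 15.8 and 3.69 CPM under d-SMG. Under s-GAG it was 4.88, 3.64 and 0.649 CPM, and under Alg 2.47, 4.18 and 12.7 CPM. Glypican-6 (*Gpc6*), a lipid-anchored heparan sulfate proteoglycan, reached 31.2 CPM in control day 7 and 17.0 CPM in d-SMG day 7, and at most 6.36 CPM elsewhere. Perlecan (*Hspg2*), of basement membranes, was 222 and 147 CPM in these libraries against 30.9 to 120 CPM in the others.

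**Figure D2:**
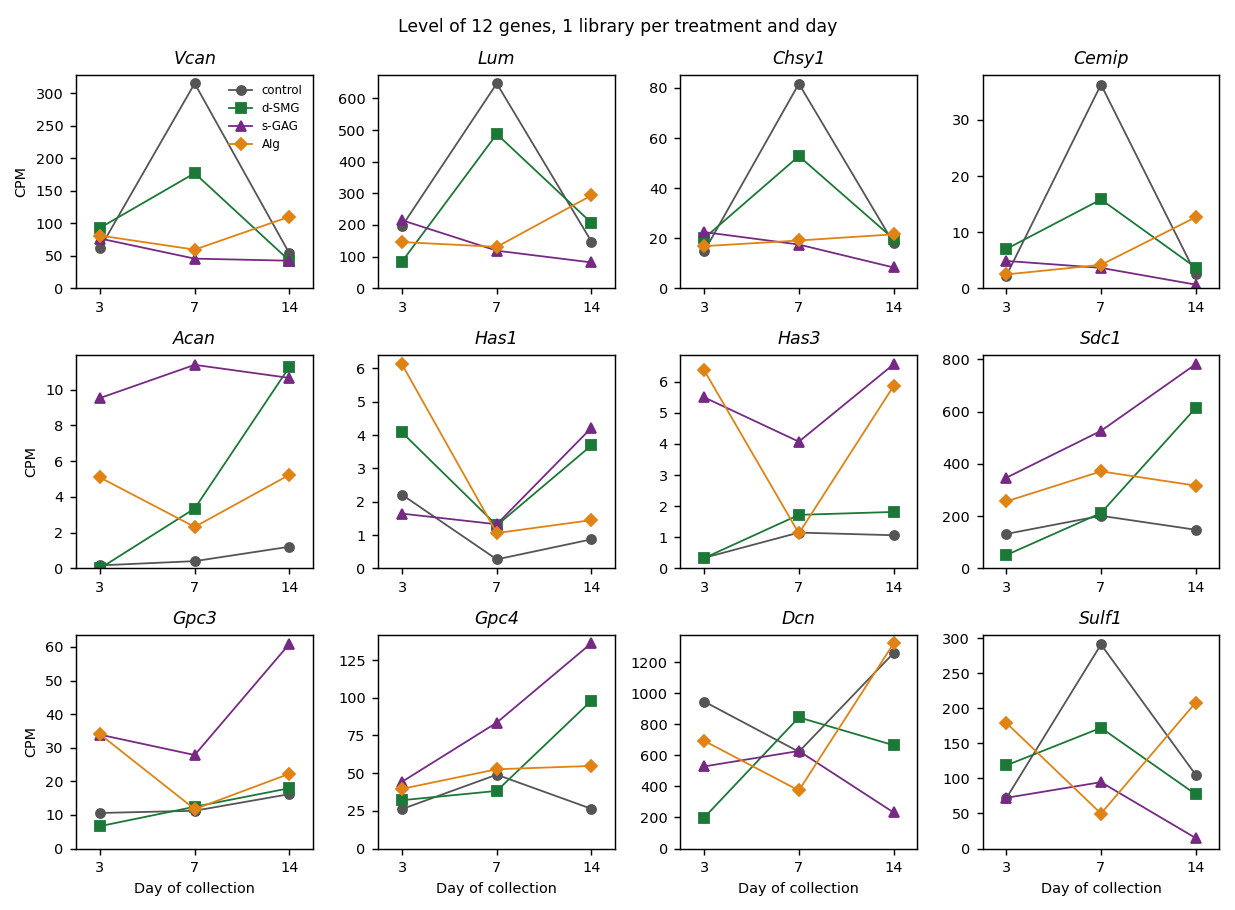
CPM of 12 genes (vertical axes, starting at 0 and scaled per gene) by day of collection, with 1 point per library and lines that join the libraries of a treatment. Vcan, Lum, Chsy1 and Cemip peak on day 7 in the control and d-SMG wounds, and Acan is lowest in the control on day 7 and 14 and at 0 reads in d-SMG day 3.

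Promoter sequences are shown for 4 genes of this group and for *Acan* and *Sdc1*, which followed another course, so that windows of genes that varied together can be read beside windows of genes that did not. Each runs from 250 bases before to 50 bases after an annotated start, is taken from RefSeq on build GRCr8, and is printed 5′ to 3′ on the gene's strand. The build behind the deposited counts is not given in the sources used here. Capitals mark the GC box, whose letters are GGGCGG, on either strand. They also mark the TATA box, whose letters are TATAAA. Vcan, which has 2 annotated starts, is shown at chr2:22595906-22596205 (minus strand), Lum at chr7:34245456-34245755 (plus), Chsy1 at chr1:129099838-129100137 (plus), Cemip at chr1:147471434-147471733 (minus), Acan at chr1:142390701-142391000 (plus) and Sdc1 at chr6:37281791-37282090 (plus).
Vcan: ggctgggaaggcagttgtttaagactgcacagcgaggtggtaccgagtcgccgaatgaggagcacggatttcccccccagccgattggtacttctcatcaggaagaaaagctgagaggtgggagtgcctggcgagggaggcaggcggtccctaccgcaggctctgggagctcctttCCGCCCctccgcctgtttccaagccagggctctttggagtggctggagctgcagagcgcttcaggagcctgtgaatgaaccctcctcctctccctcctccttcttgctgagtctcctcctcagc
Lum: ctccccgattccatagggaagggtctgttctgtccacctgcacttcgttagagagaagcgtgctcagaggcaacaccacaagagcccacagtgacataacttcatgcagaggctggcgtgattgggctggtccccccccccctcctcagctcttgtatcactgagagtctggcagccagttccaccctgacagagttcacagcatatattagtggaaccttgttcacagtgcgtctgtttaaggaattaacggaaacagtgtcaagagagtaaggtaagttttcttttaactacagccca
Chsy1: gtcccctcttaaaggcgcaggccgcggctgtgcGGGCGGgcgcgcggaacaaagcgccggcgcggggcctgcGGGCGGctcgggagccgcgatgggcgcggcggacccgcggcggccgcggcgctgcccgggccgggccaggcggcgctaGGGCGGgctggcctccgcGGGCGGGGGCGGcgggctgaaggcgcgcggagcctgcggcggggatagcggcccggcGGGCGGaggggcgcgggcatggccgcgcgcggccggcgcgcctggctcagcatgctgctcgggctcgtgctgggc
Cemip: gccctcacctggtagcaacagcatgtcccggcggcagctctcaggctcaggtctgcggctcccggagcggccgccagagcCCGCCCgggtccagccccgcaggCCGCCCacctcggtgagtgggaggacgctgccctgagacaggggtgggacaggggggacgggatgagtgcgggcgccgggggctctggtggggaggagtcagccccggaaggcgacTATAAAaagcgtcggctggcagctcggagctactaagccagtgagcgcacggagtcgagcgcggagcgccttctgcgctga
Acan: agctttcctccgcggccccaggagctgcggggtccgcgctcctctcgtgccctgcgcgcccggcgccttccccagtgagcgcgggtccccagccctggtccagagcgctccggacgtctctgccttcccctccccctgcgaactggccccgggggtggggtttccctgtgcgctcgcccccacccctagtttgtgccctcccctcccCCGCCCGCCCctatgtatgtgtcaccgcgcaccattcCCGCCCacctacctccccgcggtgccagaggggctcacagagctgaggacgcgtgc
Sdc1: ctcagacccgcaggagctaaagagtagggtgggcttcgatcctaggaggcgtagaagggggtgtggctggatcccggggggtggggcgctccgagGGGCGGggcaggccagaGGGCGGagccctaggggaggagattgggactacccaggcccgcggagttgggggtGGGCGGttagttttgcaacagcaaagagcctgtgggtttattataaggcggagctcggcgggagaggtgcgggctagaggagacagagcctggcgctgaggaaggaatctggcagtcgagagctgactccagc

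The windows of the genes that peaked together were unlike in composition. The Chsy1 window was 84.0% G and C with 6 GC boxes, whereas the Lum window was 50.7% G and C with none. Vcan had 1 GC box, 74 bases before its start, and Cemip had 2, with a TATA box 31 bases before its start. Acan and Sdc1 had 3 GC boxes each. A GC box was found in 33.1% of the 33469 rat windows and in those of 25 of the 43 genes of the set with a window. For the set, a gene was counted if any of its windows held the motif. The rat share counts single windows, so these numbers are not like for like. TATAAA was in 14.2% of all windows and in 3 of the 43, and the AP-1 site TGANTCA, searched on both strands, was in 7.33% of all windows, in 1 of the 43 and in none of the 6 shown.

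The days were compared over the 4 treatments with the quasi-likelihood test of edgeR, with treatment as a block, so that the treatments serve as replicates and p-values measure the spread between these libraries. No gene of the set was called at an adjusted p under 0.05 in any of the 3 comparisons, where 0% of all genes tested were called. For day 7 against day 3, 2 of the 60 had an unadjusted p under 0.05, against 1.81% of all genes, for day 14 against day 7 it was 4 of 60 against 3.12%, and for day 14 against day 3 it was 2 of 60 against 4.95%. Between day 3 and day 7, 44 of the 60 were fitted higher, with a median log2 fold change of 0.24 against -0.0023 over all genes. Between day 7 and day 14, 39 of the 60 were fitted lower, with a median of -0.22. DESeq2 and limma also called none of the 60 on any pair of days, and DESeq2 gave 3, 5 and 5 of them an unadjusted p under 0.05 for day 7 against 3, 14 against 7 and 14 against 3.

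*Has1*, a hyaluronan synthase induced by inflammatory signals, had the smallest p of the set on day 7 against day 3. It stood at 2.21, 0.271 and 0.873 CPM in the control, 4.08, 1.29 and 3.69 CPM under d-SMG, 1.64, 1.32 and 4.22 CPM under s-GAG and 6.12, 1.06 and 1.45 CPM under Alg. Each treatment was lower on day 7 than on day 3 and higher again on day 14. The log2 fold change was -1.98 ± 0.56 (SE) for day 7 against day 3 (adjusted p = 0.999) and 1.39 ± 0.54 for day 14 against day 7 (adjusted p = 0.904). *Gpc6* went the other way, by 1.54 ± 0.62 (adjusted p = 0.999) and -1.81 ± 0.59 (adjusted p = 0.904), and *Chsy1* by 0.96 ± 0.49 (adjusted p = 0.999) and -1.18 ± 0.48 (adjusted p = 0.904). *Hspg2* was lower on day 14 than on day 7 by a log2 fold change of -0.98 ± 0.38 (adjusted p = 0.904).

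For day 14 against day 3, the smallest p-values on the higher side belonged to *Gpc4* and *Sdc1*. *Sdc1* was 132, 201 and 148 CPM in the control, 50.9, 212 and 614 CPM under d-SMG, 347, 526 and 781 CPM under s-GAG and 256, 371 and 317 CPM under Alg. All 4 treatments were higher on day 14 than on day 3, and the increase was small in the control and Alg. Glypican-4 (*Gpc4*) was 26.2, 49.0 and 26.3 CPM in the control, 32.1, 38.2 and 98.1 CPM under d-SMG, 44.3, 83.5 and 136 CPM under s-GAG and 39.6, 52.6 and 54.8 CPM under Alg. The log2 fold change of day 14 against day 3 was 1.33 ± 0.54 for *Sdc1* (adjusted p = 0.882) and 1.04 ± 0.37 for *Gpc4* (adjusted p = 0.882). *Chst15*, a chondroitin 6-O-sulfotransferase, differed by 0.80 ± 0.36 (adjusted p = 0.882). On the lower side, *Extl3*, which starts heparan sulfate chains, differed by -0.59 ± 0.27 (adjusted p = 0.882), *Gpc1* by -0.75 ± 0.37 (adjusted p = 0.882) and *Sdc3* by -0.47 ± 0.26 (adjusted p = 0.882).

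The levels of *Sdc1* can be read beside the keratinocyte markers. The 10 measured markers summed to 6083, 5016 and 13204 CPM in the control and to 53.7, 10346 and 22224 CPM under d-SMG. Under s-GAG the sums were 14438, 22182 and 39920 CPM, and under Alg 11507, 17655 and 23072 CPM. The libraries with the lowest and the highest sum, d-SMG day 3 and s-GAG day 14, were also those with the lowest and the highest *Sdc1*. Most of the s-GAG day 14 sum was *Krt14* (23453 CPM), and *Krt5*, *Krt15*, *Krt16* and *Krt17* were also highest there. *Krt6a* and *Dsg3* were not. *Dsp*, *Krt1* and *Krt10* were 315, 78.7 and 121 CPM there, against 3055, 1641 and 2317 CPM in control day 14. The s-GAG day 14 library also had 38.03% of its protein-coding reads on genes under 1.5 kb. The part of keratinocyte content in the level of *Sdc1* was not tested.

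**Figure D3:**
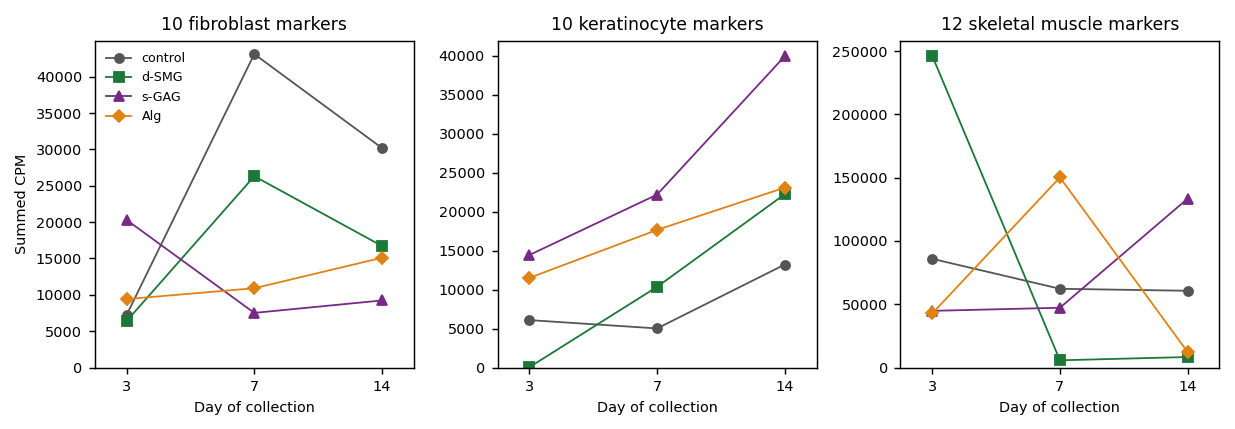
Summed CPM of the fibroblast, keratinocyte and skeletal muscle markers (vertical axes, starting at 0) by day of collection, with 1 point per library. The fibroblast sum is highest in control day 7 (43109 CPM), the keratinocyte sum is 53.7 CPM in d-SMG day 3 and 39920 CPM in s-GAG day 14, and the muscle sum is highest in d-SMG day 3.

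Each dressing was then compared with the control over the 3 days, with day as a block. The control libraries are shared by the 3 comparisons. No gene of the set was called for any dressing, where 0% of all genes were called. With an unadjusted p under 0.05 there were 2 of 60 for d-SMG against 1.35% of all genes, 12 of 60 for s-GAG against 9.26%, and 4 of 60 for Alg against 3.12%. With DESeq2 in place of edgeR, 3 genes of the set were called for s-GAG (*Acan*, *Has3* and *Gpc3*) among 288 genes in all, and none for d-SMG or Alg. With limma on the deposited FPKM none was called. The 40 genes fitted lower for d-SMG, 40 for s-GAG and 38 for Alg outnumbered those fitted higher, with medians of -0.15, -0.32 and -0.24 on the log2 scale. Of all 16110 genes, 8644, 8038 and 8604 were fitted lower, with medians of -0.03, 0.0021 and -0.027.

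Aggrecan (*Acan*), the large chondroitin sulfate proteoglycan best known from cartilage and also made in the hair follicle sheath, differed most. It stood at 0.170, 0.406 and 1.21 CPM in the control on day 3, 7 and 14, from 4, 6 and 25 reads. It was 9.52, 11.4 and 10.7 CPM under s-GAG, 5.08, 2.32 and 5.23 CPM under Alg, and 0, 3.35 and 11.3 CPM under d-SMG. All s-GAG and Alg libraries lay above all control libraries, and so did d-SMG on day 7 and 14. The 0 reads in d-SMG day 3 allow up to 0.2497 CPM (3 reads) at that depth, counting error only. The log2 fold change against control was 4.61 ± 1.19 for s-GAG (adjusted p = 0.417), 3.25 ± 1.16 for Alg (adjusted p = 1) and 2.78 ± 1.12 for d-SMG (adjusted p = 1). Without the d-SMG day 3 library the adjusted p of s-GAG was 0.0338, and with DESeq2 it was 0.000863. The filter on low counts looks at all libraries together, and most *Acan* reads lay in dressed ones, where it was high. These p-values are therefore no separate support for a difference. The 5 measured chondrocyte markers summed to 8.203 CPM (control day 3) up to 72.2 CPM (s-GAG day 7), where *Acan* was also highest. Most of that sum was *Sox9*, a transcription factor of cartilage and hair follicles, at 7.40, 7.93 and 28.7 CPM in the control, 11.2, 19.99 and 31.5 CPM under d-SMG, 28.4, 66.1 and 27.5 CPM under s-GAG and 16.6, 33.9 and 26.7 CPM under Alg. The collagen gene *Col11a2* was 0.765, 3.93 and 4.80 CPM in the control and 5.84, 5.42 and 8.77 CPM under s-GAG. The cartilage collagen genes *Col2a1* and *Col9a1* were near 0: *Col2a1* stayed at 0 to 0.624 CPM and *Col9a1* at 0 to 0.125 CPM in the 12 libraries. The 8 hair follicle markers summed to 43.7, 87.5 and 2627 CPM in the control, 27.6, 3063 and 4372 CPM under d-SMG, 10181, 8207 and 5528 CPM under s-GAG and 3005, 470 and 42152 CPM under Alg. *Tchh* made up most of the sum in Alg day 14 (35405 CPM) and s-GAG day 3 (7985 CPM). *Krt27* and *Krt71* were, like *Tchh*, highest in Alg day 14. *Krt25*, *Krt35*, *Krt75* and *Lhx2* were highest in s-GAG day 14, and *Shh* in Alg day 3. The part of either marker list in the level of *Acan* was not tested.

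The hyaluronan synthases were the next group. *Has3*, the main synthase of keratinocytes, was 0.340, 1.15 and 1.07 CPM in the control, 5.50, 4.07 and 6.56 CPM under s-GAG, 6.37, 1.13 and 5.86 CPM under Alg, and 0.333, 1.72 and 1.81 CPM under d-SMG. All s-GAG libraries lay above the control libraries, while Alg day 7 and d-SMG day 3 did not. The log2 fold change was 2.73 ± 0.78 for s-GAG (adjusted p = 0.417), 2.43 ± 0.80 for Alg (adjusted p = 1) and 0.58 ± 0.76 for d-SMG (adjusted p = 1). For *Has1* it was 1.5 ± 0.64 (adjusted p = 0.539), 1.39 ± 0.63 (adjusted p = 1) and 1.59 ± 0.63 (adjusted p = 1), respectively. *Has2*, the synthase of fibroblasts, was 5.31, 11.0 and 3.10 CPM in the control and 3.91, 9.09 and 14.8 CPM under d-SMG, with all fitted differences from control between -0.28 and 0.36.

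Among the hyaluronan receptors and hyaluronidases, the differences were smaller. *Cd44*, the main receptor, was 135, 153 and 102 CPM in the control and 186, 171 and 198 CPM under d-SMG, which did not overlap. Its log2 fold change for d-SMG was 0.50 ± 0.34 (adjusted p = 1). Under s-GAG it was 210, 177 and 91.0 CPM, and under Alg 159, 140 and 177 CPM. The lysosomal hyaluronidase *Hyal1* was 12.2, 15.1 and 18.8 CPM in the control and 24.04, 21.3 and 30.3 CPM under Alg, which did not overlap either. *Hyal2*, a hyaluronidase held at the cell surface, ranged from 6.40 to 16.4 CPM over the 12 libraries, and *Hmmr*, a receptor also bound to the mitotic spindle, from 8.29 to 29.1 CPM.

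Of the cell-surface proteoglycans, *Gpc3* was 10.6, 11.2 and 16.2 CPM in the control, 33.9, 27.8 and 60.9 CPM under s-GAG, 34.0, 11.73 and 22.3 CPM under Alg and 6.66, 12.4 and 18.0 CPM under d-SMG. All s-GAG libraries lay above all control libraries, and the log2 fold change was 1.67 ± 0.44 (adjusted p = 0.417). For *Sdc1* and *Gpc4* under s-GAG it was 1.68 ± 0.60 (adjusted p = 0.499) and 1.26 ± 0.43 (adjusted p = 0.49). *Gpc1* was on the other side, with 80.8, 113 and 100 CPM in the control, 56.2, 46.6 and 34.0 CPM under s-GAG, 49.6, 77.8 and 30.5 CPM under Alg and 128, 70.5 and 32.7 CPM under d-SMG. Its log2 fold change was -1.15 ± 0.43 for s-GAG (adjusted p = 0.502), -1.02 ± 0.43 for Alg (adjusted p = 1) and -0.56 ± 0.43 for d-SMG (adjusted p = 1). *Sdc4*, a syndecan of focal adhesions, was highest in s-GAG day 7 (129 CPM) and d-SMG day 14 (95.7 CPM), and 28.8 to 68.9 CPM elsewhere.

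**Figure D4:**
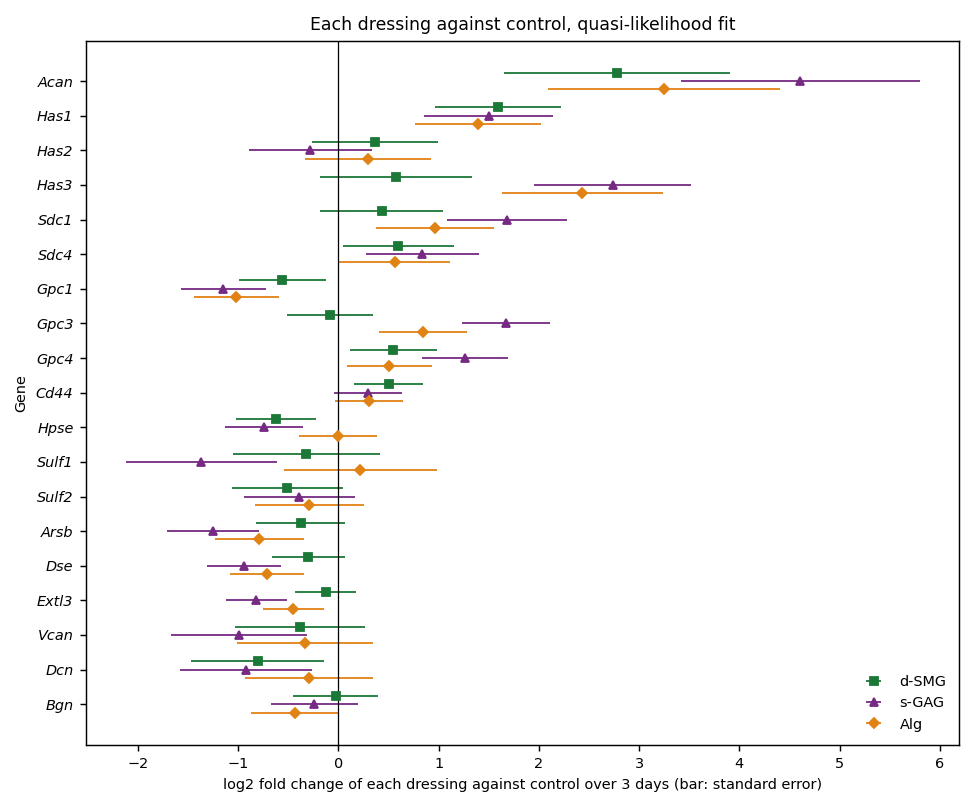
Log2 fold change of each dressing against control over the 3 days (horizontal axis) for 19 genes (vertical axis), with 1 standard error as the bar. Acan lies right of 0 for all 3 dressings, from 2.78 (d-SMG) to 4.61 (s-GAG), Gpc1 lies left of 0 for all 3, and no difference passed an adjusted p of 0.05.

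The enzymes of heparan sulfate showed no common direction. Of the 4 genes listed as polymerases (*Ext1*, *Ext2* and the related *Extl2* and *Extl3*), 3 were fitted lower for each dressing. *Extl3*, which starts the chain, had a log2 fold change of -0.82 ± 0.31 under s-GAG (adjusted p = 0.504), and *Extl2* of -1.03 ± 0.43 (adjusted p = 0.533). Of the 7 modification enzymes, *Ndst1*, the first N-deacetylase and N-sulfotransferase, was 15.9, 21.5 and 16.5 CPM in the control and 23.1, 24.4 and 46.3 CPM under s-GAG (0.79 ± 0.34, adjusted p = 0.539). *Hs6st2*, a 6-O-sulfotransferase with 10 to 131 reads, was 1.998, 4.27 and 6.35 CPM in the control and 2.66, 1.43 and 0.779 CPM under s-GAG. The extracellular editors were fitted lower for d-SMG and s-GAG in all 3 cases. *Hpse*, the heparanase that cleaves heparan sulfate, was 36.3, 20.1 and 31.8 CPM in the control, 14.4, 25.1 and 15.5 CPM under d-SMG, 23.2, 14.0 and 14.5 CPM under s-GAG and 42.6, 16.2 and 31.1 CPM under Alg. *Sulf1* was 71.6, 291 and 105 CPM in the control against 72.3, 94.6 and 14.9 CPM under s-GAG, and *Sulf2*, its partner, was 43.3, 52.4 and 104 CPM against 61.5, 45.3 and 30.1 CPM.

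The chondroitin enzymes and small leucine-rich proteoglycans were fitted lower throughout or nearly so. All 5 chain synthesis genes were lower for each dressing, with median log2 fold changes of -0.24 for d-SMG, -0.57 for s-GAG and -0.40 for Alg. All 6 small leucine-rich proteoglycans were also lower for each dressing, with medians of -0.36, -0.65 and -0.44. None of these 11 genes had an unadjusted p under 0.05. The fibroblast markers summed to 7244, 43109 and 30196 CPM in the control on day 3, 7 and 14, and 6404, 26314 and 16727 CPM under d-SMG. The sums were 20291, 7514 and 9224 CPM under s-GAG and 9414, 10907 and 15096 CPM under Alg. Every dressing sum, mostly collagen reads, was below the control sum on day 7 and 14. *Col1a1*, *Col1a2*, *Col3a1*, *Pdgfrb* and *Fap* were below the control in every dressing on both days. *Dpt* on day 7 was 61.6 CPM in the control against 190, 106 and 86.4 CPM under d-SMG, s-GAG and Alg. On day 14, *Thy1* was 62.3 CPM against 90.6, 63.5 and 123 CPM, and *Pi16* 10.3 CPM against 13.8, 13.8 and 14.0 CPM. The part of fibroblast content in these gene groups was not tested. *Dcn* was 946, 623 and 1258 CPM in the control, 199, 844 and 665 CPM under d-SMG, 528, 628 and 232 CPM under s-GAG and 693, 373 and 1319 CPM under Alg, and the groups overlapped. *Bgn*, *Fmod*, *Ogn* and *Prelp* overlapped with the control for d-SMG and Alg, and only *Fmod* lay below all control libraries under s-GAG. In the linkage region, *Xylt1*, a xylosyltransferase that starts the chain, stood at 2.27 CPM in s-GAG day 14 against 13.8 to 39.4 CPM elsewhere. *B3gat3* (54.9 CPM against 12.5 to 25.9) and *B4galt7* (24.4 CPM against 7.43 to 11.4) were highest there. That library had 38.03% of its protein-coding reads on genes under 1.5 kb. Implied lengths were 9.94 kb for *Xylt1*, 1.76 kb for *B3gat3* and 2.43 kb for *B4galt7*. *B3galt6*, at 2.34 kb, was lowest there (0.844 CPM), and the part of length was not tested.

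The lysosomal enzymes that break down heparan and dermatan sulfate were fitted lower under s-GAG in all 4 cases. *Arsb*, the N-acetylgalactosamine 4-sulfatase, was 17.6, 21.8 and 17.4 CPM in the control, 15.6, 7.05 and 3.31 CPM under s-GAG, 13.5, 9.68 and 10.2 CPM under Alg and 12.6, 21.7 and 11.45 CPM under d-SMG. All s-GAG and Alg libraries lay below all control libraries, and the log2 fold change for s-GAG was -1.25 ± 0.46 (adjusted p = 0.499). The dermatan sulfate epimerase *Dse* was also separated, with -0.95 ± 0.37 for s-GAG (adjusted p = 0.516) and -0.71 ± 0.37 for Alg (adjusted p = 1). *Ids* and *Idua*, which act on iduronic acid, ranged from 6.62 to 18.9 CPM and from 12.8 to 32.6 CPM over the 12 libraries, both lowest in s-GAG day 14. *Chst12*, a chondroitin 4-sulfotransferase, differed by -0.87 ± 0.36 for Alg (adjusted p = 1).

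Counted without a model, all 3 s-GAG libraries lay above all 3 control libraries for 7 of the 60 genes (*Acan*, *Agrn*, *Chst15*, *Gpc3*, *Has3*, *Ndst1* and *Sdc1*), against 9.5% of all genes, and below them for 8 (*Arsb*, *Chst12*, *Csgalnact2*, *Dse*, *Extl2*, *Fmod*, *Gpc1* and *Hs3st1*), against 7.66%. For Alg there were 5 above (*Acan*, *Hyal1*, *Ndst1*, *Sdc1* and *Sdc4*), against 5.82%, and 8 below (*Arsb*, *Chpf*, *Chst12*, *Dse*, *Ext2*, *Extl3*, *Gpc1* and *Hs3st1*), against 4.23%. For d-SMG there were 3 above (*B3galt6*, *Cd44* and *Hyal2*), against 2.52%, and 0 below, against 1.18%.

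Within a day, each dressed library was set against the control library of that day. With 1 library on each side there is no replicate check. A 95% interval, printed for some of the folds below, covers counting error only, and the folds printed without one are no firmer. On day 7, 20 of the 60 genes were at least 2-fold lower under s-GAG, against 12.5% of all genes, and 20 were lower under Alg, against 12.1%. Under d-SMG only 2 were lower, against 5.74%. Those higher were 6 (11.8% of all genes), 2 (12.3%) and 2 (7.35%), respectively. On day 7, *Gpc6* was 10.6-fold lower under s-GAG (log2 -3.41, -3.72 to -3.11), *Cemip* 9.97-fold (log2 -3.32, -3.59 to -3.05) and *Vcan* 6.91-fold (log2 -2.79, -2.87 to -2.71). Under Alg on the same day, *Cemip* was 8.69-fold lower, *Sulf1* 5.84-fold and *Vcan* 5.30-fold. These comparisons share the control day 7 library, where the fibroblast marker sum, mostly collagen reads, was highest. On the higher side on day 7 were *Acan* (28.0-fold, log2 4.81, 3.67 to 6.26), *Sdc4* (3.92-fold) and *Has3* (3.54-fold) under s-GAG, and *Cemip* was 2.29-fold lower under d-SMG.

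On day 3, 2 genes of 59 with enough reads were higher and 8 lower under d-SMG, against 9.88% and 13.1% of all genes. The 8 included *Dcn* (4.755-fold), *Sdc1* (2.59-fold) and *Hpse* (2.52-fold), in the library nearly free of keratinocyte markers. Under s-GAG 8 of 60 were higher and 0 lower, against 14.2% and 11.4%, and under Alg 5 were higher and 1 (*Chst12*, 2.01-fold) lower, against 11.4% and 8.79%. *Acan* led both, at 56.0-fold higher under s-GAG (log2 5.81, 4.42 to 7.70) and 29.9-fold under Alg (log2 4.90, 3.50 to 6.81), over 4 control reads. *Gpc3* was 3.20-fold and 3.21-fold higher, *Sdc1* was 2.63-fold higher under s-GAG, and *Has3* was 18.7-fold higher under Alg over 8 control reads.

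On day 14, 8 of the 60 were higher and 8 lower under d-SMG, against 12.7% and 16.1% of all genes, 10 and 21 under s-GAG, against 26.6% and 31.1%, and 9 and 6 under Alg, against 9.51% and 11.8%. Under d-SMG the largest were *Acan* (9.30-fold), *Has2* (4.76-fold) and *Sdc1* (4.15-fold) on the higher side and *Hs6st2* (10.1-fold), *Gpc1* (3.07-fold) and *Csgalnact2* (2.64-fold) on the lower side. Under s-GAG they were *Acan* (8.79-fold), *Has3* (6.15-fold) and *Sdc1* (5.28-fold) against *Chst3* (17.2-fold), *Xylt1* (16.0-fold) and *Csgalnact2* (11.68-fold). Under Alg, *Cemip* was 4.93-fold, *Has2* 4.59-fold and *Hmmr* 3.51-fold higher, and *Hs6st2* was 7.20-fold and *Ogn* and *Gpc1* each 3.29-fold lower. The s-GAG day 14 library held the lowest value of 26 of the 60 genes, against 30.9% of all genes. Of 59 genes with an implied length, the 30 longer ones had a median log2 difference of -0.83 from the other day 14 libraries and the 29 shorter ones -0.45. Such a gap was not particular to this library. Set against the other libraries of their day, control day 3 had -0.41 (longer) and -0.086 (shorter), and Alg day 14 had 0.44 and -0.16. The part of fragment or gene length in these differences was not tested.

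**Figure D5:**
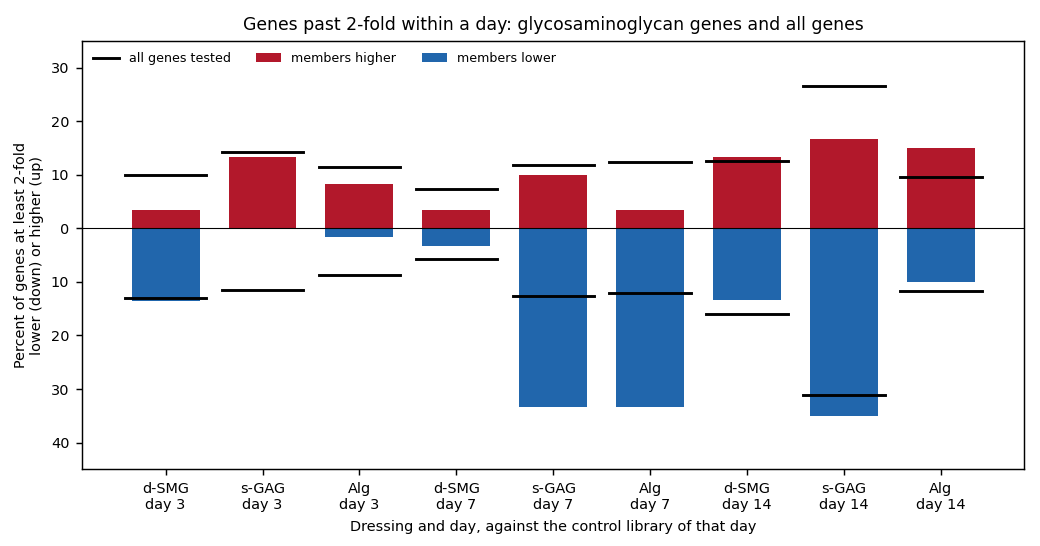
Percent of the 60 genes (59 for d-SMG day 3) at least 2-fold higher (red, up) or lower (blue, down) than the control library of the same day, with black lines for all genes tested. The blue bars of s-GAG and Alg on day 7 reach 20 of 60 genes, past the lines at 12.5% and 12.1%.

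The wounds that received a snail glycosaminoglycan (d-SMG and s-GAG) were compared with those that did not (control and Alg). No gene of the set was called, where 0% of all genes were, and 2 of 60 had an unadjusted p under 0.05, against 1.55%. These were *Acan*, with a log2 fold change of 2.07 ± 0.76 (adjusted p = 0.96), and *Hpse*, with -0.68 ± 0.28 (adjusted p = 0.96). *Gpc4* (0.65 ± 0.31), *Has1* (0.85 ± 0.45), *Sulf1* (-0.95 ± 0.53) and *Dcn* (-0.72 ± 0.47) followed. The median of the 60 genes was -0.07. DESeq2 and limma called none of the 60, with 3 and 1 at an unadjusted p under 0.05.

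The change from day 3 to day 14 was also compared between these wounds, as an interaction. None of the 60 was called, where 0% of all genes were, and 6 of 60 had an unadjusted p under 0.05, against 9.04%. *Has1* (2.29 ± 0.83), *Sdc1* (2.16 ± 0.83) and *Gpc4* (1.41 ± 0.53) had a positive interaction, a day 14 against day 3 difference fitted higher in the glycosaminoglycan wounds, and *Csgalnact2* (-2.62 ± 0.74), *Hs6st2* (-3.35 ± 1.16) and *Xylt1* (-2.91 ± 1.17) a negative one, with adjusted p-values of 0.522 for each. The day 3 and day 14 ends of this comparison hold the d-SMG day 3 and s-GAG day 14 libraries. Without both, 0 of the 60 were called and 5 had an unadjusted p under 0.05. DESeq2 and limma called none with all libraries, with 7 and 3 at an unadjusted p under 0.05.

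Of 91 other genes of the pathway, listed apart from the 60, 87 were in the table and 68 were tested. edgeR called none in any comparison. For s-GAG against control, 50 of the 68 were fitted lower, with a median of -0.35, and 15 of the 16 genes for sugar precursors and the sulfate donor were among them. With an unadjusted p under 0.05 there were 3 higher and 8 lower for s-GAG, 1 and 1 for Alg, and 0 for d-SMG, against 9.26%, 3.12% and 1.35% of all genes. There were 4 higher and 1 lower for day 7 against day 3 (1.81% of all genes), 3 and 4 for day 14 against day 7 (3.12%), and 3 and 2 for day 14 against day 3 (4.95%).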

How the data were processed

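RNA of wound tissue was sequenced as stranded, rRNA-depleted libraries with paired reads of 150 bases. The authors deposited raw read counts per gene and FPKM per gene, the latter scaled by gene length and library size. The submitters' processing notes name bcl2fastq, FastQC, TopHat2 and edgeR with no version. The genome build, annotation and counting tool are not given in the sources used here. Each table held 1 further value column that matched no sample and was not used. Libraries were grouped by treatment and day from the labels.

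The 60 genes and all gene lists were chosen with earlier results of these data known. Deposited counts were TMM-normalized, filtered with filterByExpr and tested with the quasi-likelihood test of edgeR 4.0.16 (R 4.3.3) on 12 libraries with day and treatment as terms, with Benjamini-Hochberg adjustment over 16110 genes and a threshold of 0.05. Within a day, genes with at least 10 reads in the pair were compared by fold with 95% Clopper-Pearson intervals, and fewer than 3 reads were set to 3. DESeq2 1.42.0, limma 3.58.1 on log2(FPKM + 1) and log2(FPKM + 0.1), other normalizations, filters and left-out libraries were alternatives. Depth was 13748887 to 38302461 reads, and intervals cover counting error only. On simulated data for day 14 against day 3 (15863 genes), the test recovered 60.7% of genes with a known log2 change of 2 and 93.7% of those with 3. The changed genes were drawn from those above a floor of reads, and each gene was given the typical spread of genes of its level. Recovery of changes below 2, or of genes with a wider spread, was not measured.

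Genes named were up to 30 called genes per comparison, the 3 smallest p in each direction where fewer than 6 were called, the largest change of day 14 against day 3 and the highest median FPKM per role, Has1, Has2, Has3, Cd44, Sulf1, Sulf2, Hpse, Dcn, Bgn, Vcan, Sdc1 and Sdc4, and per day the 3 largest folds in each direction among those with at least 100 reads. Others were named after their values were seen.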

Additional observations from a re-analysis of the deposited data

How the results depend on the processing

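With 1 library per treatment and day, depth did not replace replication, and counts past 2-fold have no replicate check. Over 20 to 22 alternatives per comparison, 0 of the 60 genes were called in 7 of the 8 comparisons. The exception was s-GAG against control, where 3 were called with DESeq2 (*Acan*, *Has3* and *Gpc3*), 0 to 1 when a library was left out (*Acan*, without d-SMG day 3), and 1 without both d-SMG day 3 and s-GAG day 14, an alternative chosen after seeing the data. DESeq2 and the left-out library also raised the calls over all genes, from 0 to 288 and 66, and leaving out both gave 177. The cause was not tested. Genes with an unadjusted p under 0.05 ranged from 5 to 17 for s-GAG and from 0 to 6 for d-SMG.

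Within a day, the genes of the set at least 2-fold away from control numbered 10 (d-SMG), 8 (s-GAG) and 6 (Alg) by reads at the first time, 4, 26 and 22 at the second, and 16, 31 and 15 at the last. The shares of all genes, by direction, are given with the single-day comparisons above. With FPKM and a pseudocount of 1 the Alg numbers were 3, 13 and 8 at the 3 times, and d-SMG had 0 on day 7 and 10 on day 14. Over all genes, the Alg numbers were then 990 of 16487, 1435 of 15874 and 1373 of 16326. Those of d-SMG were 692 of 16164 on day 7 and 1978 of 16395 on day 14. With a pseudocount of 0.1, d-SMG on day 7 gave 2, and 1771 of 16164 over all genes. An exact test of edgeR at an assumed biological coefficient of variation of 0.3 gave, in order of time, 1, 1 and 4 for d-SMG, 2, 7 and 18 for s-GAG, and 2, 5 and 4 for Alg. No direction of a named gene reversed. Over the alternatives, 172 single-day folds of named genes stayed within a fixed log2 distance of the main fold and 56 moved further. That distance was the same for every gene and does not use the counting interval. Of the fits over days or treatments, 1033 kept their side of the threshold and 5 passed it, all for *Acan*, *Has3* or *Gpc3* under s-GAG. Without the block for the other factor (no replicate block), 0 of the 60 genes were called in the 7 comparisons where it could be fitted. The comparisons of dressings already pair libraries by day and those of days by treatment, and the labels hold no other number that could pair them. The fit on the compared libraries alone was not run for the contrast of glycosaminoglycan dressings, and neither of these fits was run for the interaction.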
